A study of Drosophila melanogaster with 8 samples.

Results

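The 2 arrays of control set 2, GFP control replicate 2 and Sxl RNAi replicate 1, were set against the other arrays of their own treatments in the Drosophila Kc cell line. For every gene, GFP replicate 2 was taken minus the mean of GFP replicates 1 and 3, and Sxl RNAi replicate 1 minus the mean of Sxl RNAi replicates 2 and 3. A gene was kept where both differences were at least 1 on the log2 scale, a 2-fold difference, in the same direction. The rule kept 262 of 11982 genes (2.19% of those measured), of which 162 were lower in set 2 (1.35%) and 100 were higher (0.835%). The lowest genes were the water channel gene Prip, CG10859 and the prostaglandin synthase-like gene Pxt, and the type IV collagen genes Col4a1 and vkg were among the 15 lowest. The higher genes were led by 2 genes known only by number, CG33307 and CG5399, and by the haemocyte surface and secreted protein genes He and NimB5.

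The series asked how loss of SXL, which holds back dosage compensation in female cells, changes transcription. RNA from Kc cells was hybridised to 8 Affymetrix expression arrays after double-stranded RNA against GFP, a target that fly cells lack (3 arrays), against Sxl (3 arrays), or against Sxl and Msl2 together (2 arrays). The labels name the GFP array that serves each knockdown array, which gives 3 control sets. Set 1 joins GFP replicate 1 to the second Sxl RNAi replicate and the first double knockdown, set 2 is as given above, and set 3 joins the third replicates of GFP and of Sxl RNAi to the second double knockdown. All cells were of 1 line, and the sources used here do not give the duration of the RNAi or say what a set shares, such as a day or a batch of cells. Set 2 has no double knockdown array. The targeted genes were not among the calls for set 2. Sxl read 7.20, 7.01 and 6.99 in the GFP arrays in order of replicate and 6.64, 6.09 and 6.93 in those of Sxl RNAi, so that every knockdown array lay below every GFP array. The msl-2 gene read 4.32, 4.47 and 4.51 in GFP and 6.19, 5.33 and 5.61 in Sxl RNAi, with set 2 the highest of the knockdown arrays (set 2 difference log2 0.38 ± 0.17 SE, limma adjusted p = 0.226).

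Kc is an embryonic Drosophila line that carries many features of haemocytes, the blood cells of the fly. Plasmatocytes, the common haemocyte, engulf dying cells and microbes through receptors such as Eater, NimC1 and Croquemort, and secrete collagen, peroxidasin and glutactin into the basement membrane. Insects oxidise and conjugate toxins through large families of cytochrome P450, glutathione S-transferase and glycosyltransferase genes, of which many lie in clusters.

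Array medians lay between 4.397 and 4.458 on the log2 scale, and 5991 genes had a mean over the 6 GFP and Sxl RNAi arrays above 5.24, the median of all genes, and are called expressed here (a level, not a detection call). Control probe sets separated set 2 from every other array. Poly-A spike RNAs, bacterial transcripts added to total RNA ahead of labelling, averaged 3.92 and 3.88 over 12 probe sets in the GFP and Sxl RNAi arrays of set 2, against 5.68 to 6.07 in the other 6 arrays. The dap probe set at the 3′ end read 3.63 and 3.44 in set 2 and 8.32 to 8.92 elsewhere. Hybridisation spikes, added after labelling, averaged 10.47 and 10.48 over 9 probe sets in set 2 and 10.80 to 11.18 elsewhere. The 18S ribosomal RNA probe sets averaged 9.05 and 9.28 over 3 probe sets in set 2 and 7.79 to 8.62 elsewhere, and the ribosomal pseudogene 18SrRNA-Psi:CR41602 was among the higher kept genes (8.22 and 8.09 in set 2, 6.96 to 7.14 in the other 6 arrays). The 3′ minus 5′ difference of the actin, GAPDH and eIF-4a controls, a sign of RNA quality, differed in set 2 by -0.06 to 0.01 from the mean of sets 1 and 3. Sets 1 and 3 differed, and set 2 lay between them for each control. For eIF-4a the GFP and Sxl RNAi arrays read 0.55 and 0.46 in set 1, 0.73 and 0.72 in set 2, and 1.01 and 1.06 in set 3. The sources used here do not say whether the poly-A spikes were added to the RNA of set 2. The part of the spike difference in the gene differences was not tested, and cells and handling cannot be told apart in this design.

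**Figure D1:**
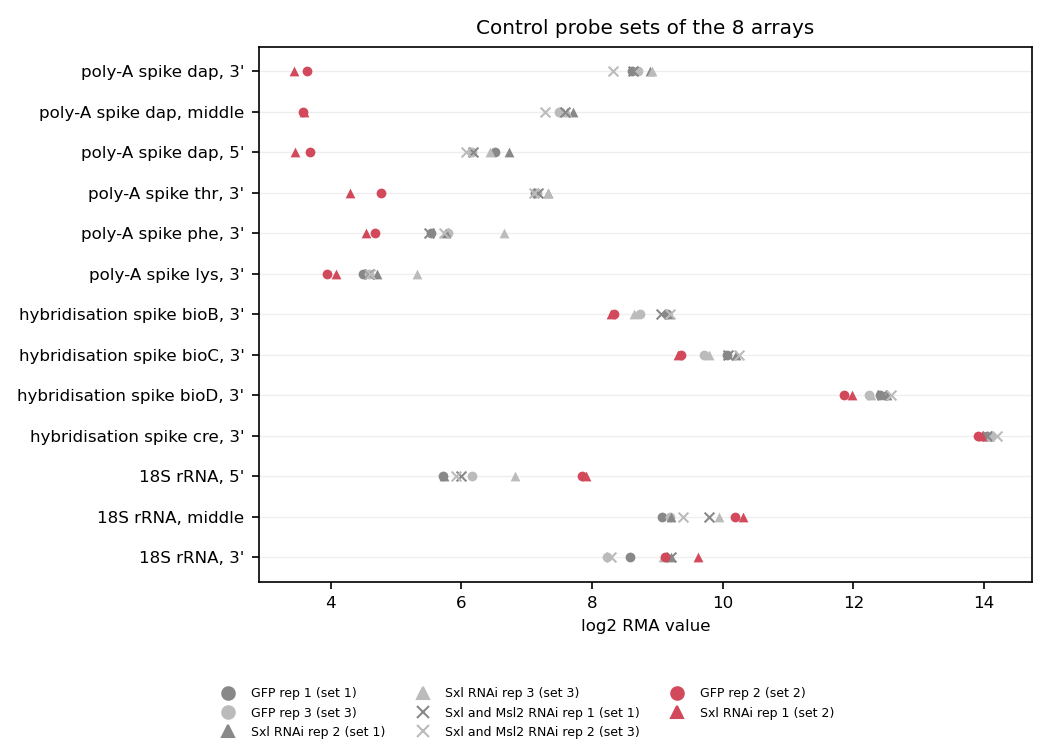
Control probe sets of the 8 arrays, with the log2 RMA value on the x axis and 1 row per probe set; red symbols are the 2 arrays of set 2, dark and light grey those of sets 1 and 3, circles GFP, triangles Sxl RNAi and crosses Sxl and Msl2 RNAi. The dap spike at the 3′ end lay at 3.44 and 3.63 in set 2 and at 8.32 to 8.92 in the other arrays, and the 5′ probe set of 18S ribosomal RNA lay higher in set 2.

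The difference of set 2 in GFP cells recurred in Sxl RNAi cells. Of 121 genes at least 2-fold higher in GFP replicate 2 (1.01% of genes), 100 (82.6%) were also at least 2-fold higher in Sxl RNAi replicate 1, where 1.36% of all genes were, and 120 had the same sign. Of 207 genes at least 2-fold lower in GFP replicate 2 (1.73%), 162 (78.3%) were also at least 2-fold lower in Sxl RNAi replicate 1, against 1.71% of all genes, and all 207 had the same sign. Read the other way, 100 of 163 genes picked as higher in Sxl RNAi (61.3%) and 162 of 205 picked as lower (79.0%) passed in GFP. No gene passed 1 in opposite directions. Across the 11982 genes the GFP and Sxl RNAi differences had a Pearson correlation of 0.848, and of 0.895 across the expressed genes, a description over genes, which are not independent. The differences share no array, though all arrays were normalized together. Agreement between treatments was also seen in the other sets. Deviations from the treatment means, which include set 2, correlated over expressed genes at 0.825 in set 1 and 0.858 in set 3.

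**Figure D2:**
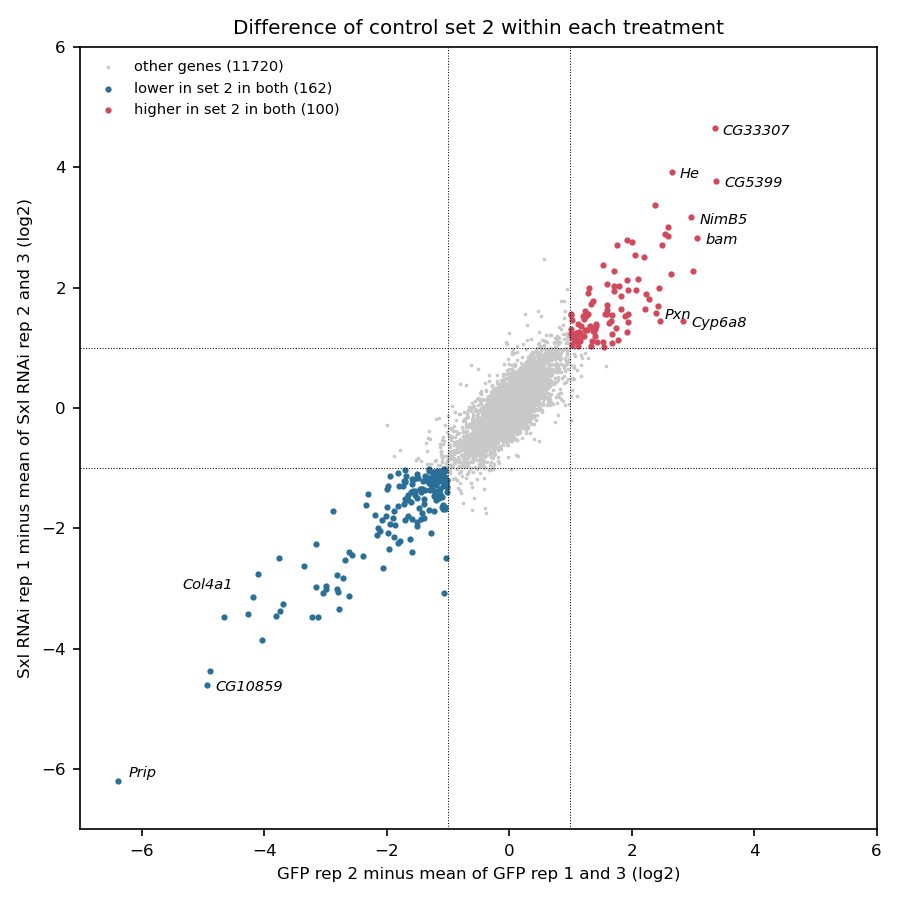
Difference of set 2 for 11982 genes, with GFP replicate 2 minus the mean of GFP replicates 1 and 3 on the x axis and Sxl RNAi replicate 1 minus the mean of Sxl RNAi replicates 2 and 3 on the y axis, both in log2 units; dotted lines mark 1 and -1. The 162 genes lower in both (blue) reach -6.39 and -6.21 for Prip, and the 100 genes higher in both (red) reach 3.35 and 4.65 for CG33307.

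Fitted over the 6 arrays with treatment and set 2 as terms, limma called 1352 genes at a Benjamini-Hochberg adjusted p under 0.05 (11.3%), 626 higher (5.22%) and 726 lower (6.06%) in set 2. The called genes differed by a median of 0.632 and by at least 0.300, and 117 of the higher and 188 of the lower ones differed by at least 1. With each control set given its own level the count was 2550. The count rested on having both arrays of set 2: it was 309 when GFP replicate 2 was left out and 233 when Sxl RNAi replicate 1 was. Leaving out Sxl RNAi replicate 2 gave 821. The kept genes were chosen by their own differences and are described below with no p value of that difference. Counts of calls include them, and their calls are no separate support. The interaction of treatment with set 2, which asks whether the response to Sxl RNAi differs in set 2, called 0 genes (0.0%) by limma, with 232 genes at an unadjusted p under 0.05, and no other tool was run. The smallest unadjusted p values belonged to metro, Pgant9, bgm, Imp and E(spl)m3-HLH. metro read 7.23, 5.23 and 7.21 in the GFP arrays by replicate number and 6.79, 7.03 and 7.11 in the Sxl RNAi arrays, so that it was low in a single array of set 2.

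The double knockdown arrays belong to sets 1 and 3 and were not used by the rule. Both were nearer the mean of the GFP and Sxl RNAi arrays of sets 1 and 3 than that of set 2 for 157 of the 162 lower genes and 91 of the 100 higher genes. Neither overlapped set 2 for any of the 162 lower genes, and the same held for 99 of the higher genes. Over all genes both set 2 arrays lay below both double knockdown arrays for 25.0% and above them for 24.9%. The share of all genes nearer sets 1 and 3 was not computed. The rule picked genes whose set 2 arrays lay away from those of sets 1 and 3. High counts of both kinds follow in part from that choice and are no separate support. The lower genes that were nearer set 2 in at least 1 double knockdown array were Nepl20, CG14990, mura, CG6424 and loh. The higher ones were Syp, Idgf1, CG8034, CG9008, tut, CG44085, Cyp6a2, bab2 and Cyp6a8. Sets 1 and 3 also differed between themselves: 33 genes differed by at least 1 in the same direction in both GFP and Sxl RNAi, and 10 of these were among the 262.

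Prip, the gene of an aquaporin, had the largest difference of the kept genes. It read 10.46 and 11.44 in GFP replicates 1 and 3 against 4.56 in GFP replicate 2. Under Sxl RNAi it read 10.15 and 11.31 in replicates 2 and 3 against 4.52 in replicate 1. The mean difference was -6.30, and both double knockdown arrays were high (10.24 and 11.11). A further, dim probe set of Prip with a mean of 4.07 differed by -0.20 in GFP and -0.10 in Sxl RNAi. Pxt, the cyclooxygenase-like peroxidase needed for prostaglandin signalling in fly follicles, read 9.66 and 8.999 in the other GFP arrays against 4.44 in set 2, and 9.24 and 8.61 in the other Sxl RNAi arrays against 4.56 (mean difference -4.63). CG10859, of which no function is given here, was at 4.77 and 5.002 in set 2 and at 9.42 to 9.84 in the other 4 arrays (-4.77). All 3 genes were under the 5.24 level in set 2 in both treatments, near the array medians, and with no detection call there their differences are given without a fold.

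Also among the 15 lowest, Rph, the fly rabphilin, which binds Rab proteins on secretory vesicles, read 4.80 in GFP and 6.55 in Sxl RNAi of set 2 and 9.10 to 10.20 in the other 4 arrays (-4.07). Esyt2, an extended synaptotagmin that tethers the endoplasmic reticulum to the plasma membrane, read 5.38 and 5.73 against 8.75 to 9.23 (-3.47). Sln, the monocarboxylate transporter Silnoon, read 4.69 and 4.99 against 8.73 to 8.89 (-3.94). The arrays of sets 1 and 3 lay close together for Sln and spread over about 1 unit for Rph.

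Others of the 15 were ringer, a tubulin-binding protein of the TPPP family, at 4.79 and 5.80 in set 2 against 8.89 to 9.54 (-3.84), and spir, the actin nucleator Spire, at 4.43 and 4.16 against 7.47 to 8.32 (-3.63). aos encodes Argos, a secreted inhibitor of the EGF receptor, and read 4.66 and 5.92 against 8.20 to 8.62 (-3.13). slgA, the proline dehydrogenase gene, read 4.53 and 4.80 against 7.55 to 7.89 (-3.07). Ugt317A1, a UDP-glycosyltransferase, read 6.36 and 6.04 against 9.24 to 9.92 (-3.35). CG8046 (-3.56) and CG5194 (-3.30) complete the 15 lowest beside the 2 collagen genes.

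Other lower genes, named after their values were seen, were unc-5, the netrin receptor (6.27 and 7.04 in set 2 against 9.06 to 9.85), NANS, the sialic acid synthase (5.44 in both arrays against 8.31 to 8.49), AnxB9, an annexin (10.50 and 10.52 against 11.98 to 12.40), and Arc1, the capsid-forming homologue of mammalian Arc (12.20 and 11.82 against 13.19 to 13.98). AnxB9 and Arc1 were lower in set 2 while still bright. A further probe set of unc-5, with a mean of 4.99, differed by 0.11 in GFP and -0.12 in Sxl RNAi. Of the 162 lower genes, 106 had all 6 arrays above 5.24, and 35 had both arrays of set 2 under it and the other 4 above.

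CG33307 had the largest difference of the higher genes, at 5.10 and 5.80 in GFP replicates 1 and 3 against 8.81 in replicate 2, and at 5.44 and 5.89 against 10.31 under Sxl RNAi (mean difference 4.0). CG5399 read 10.38 and 9.84 in set 2 against 5.58 to 8.18, with GFP replicate 3 the highest of the others (3.57). bam, the switch gene of germ cell differentiation, read 7.79 and 7.43 in set 2 and 4.51 to 4.85 in the other 4 arrays (2.95). stj, the α2δ subunit of voltage-gated calcium channels, read 6.39 and 7.43 against 3.92 to 4.13 (2.87). For bam and stj the other arrays stayed under the 5.24 level. Of the 100 higher genes, 24 had both set 2 arrays above that level and the other 4 under it, and 54 were above it in all 6 arrays.

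Cyp4p1, a cytochrome P450 also among the 15 highest, read 10.32 and 9.70 in set 2 against 6.75 to 8.12 (2.72). Pepck2, a phosphoenolpyruvate carboxykinase, read 8.21 and 8.37 against 5.47 to 6.42 (2.43). Aldh7A1, an aldehyde dehydrogenase whose mammalian homologue acts in lysine breakdown, read 8.06 and 8.30 against 5.53 to 6.19 (2.36). LKRSDH, the bifunctional enzyme that starts lysine breakdown, was also kept, at 10.36 and 10.82 against 9.05 to 9.35, and was named after its values were seen. MtnD, a metallothionein, read 5.88 and 6.66 against 3.73 to 4.07 (2.35), and Arpc3B, a subunit of the Arp2/3 actin nucleator, read 9.36 and 8.68 against 6.28 to 6.54 (2.63). The rest of the 15 were CG10799 (2.80), CG7702 (2.72), CG31431 (2.60) and CG13315 (2.38).

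**Figure D3:**
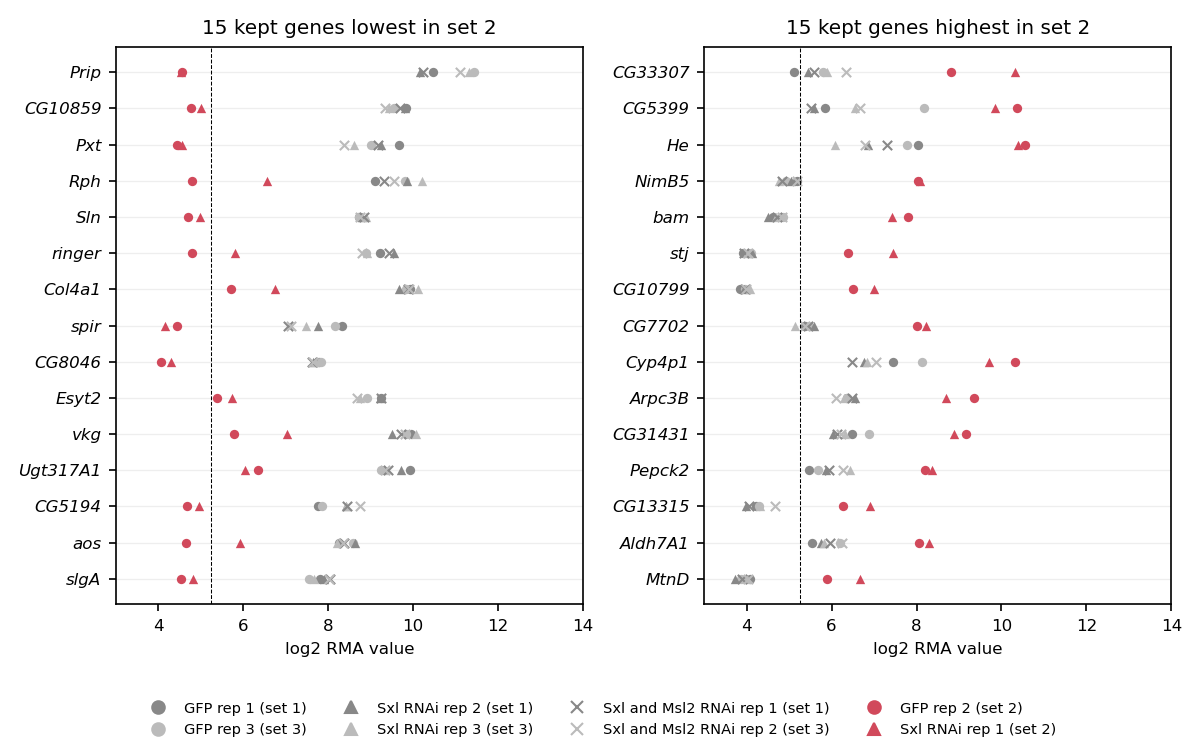
Log2 RMA value (x axis) in each of the 8 arrays for the 15 kept genes lowest (left) and highest (right) in set 2; red marks set 2, dark and light grey sets 1 and 3, circles GFP, triangles Sxl RNAi and crosses Sxl and Msl2 RNAi, and the dashed line the median of all genes (5.24). Prip lay at 4.56 and 4.52 in set 2 and above 10 in all other arrays, and NimB5 at 8.03 and 8.08 in set 2 and under 5.24 in the others.

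Functions were read over 46 gene lists, whose 1365 measured members gave 182 limma calls (13.3%, against 11.3% of all genes), 87 higher and 95 lower in set 2. Split into 4 bins by mean level, dimmest first, the genes gave 18, 149, 648 and 537 limma calls of 2996, 2995, 2995 and 2996. Dim genes were thus seldom called, and 11.3% is a low mark for lists of expressed genes. The median difference was 0.0063 over all genes and 0.0181 over the expressed genes. Calls below are from that fit, counts over lists include kept genes, and p values of the set 2 difference are given only for genes that the 2-fold rule did not keep. Of the 128 called genes named by the lists, 31 kept the call without any single array, 61 lost it only without an array of set 2, and 36 lost it also without an array of set 1 or 3. None changed direction. Adding the double knockdown arrays to the fit ended the calls of Cdk4 and kek1 (limma adjusted p = 0.0654 and 0.0608), a variance prior with a trend on level those of Cdk4, Hsf, alphaTub85E and bcd (0.0505, 0.0509, 0.0642 and 0.0784), and centring on expressed autosomal genes those of Ahcy, Hsf and mTor (0.0681, 0.0817 and 0.0641).

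Haemocyte markers moved in both directions. Of 23 measured, 9 were called higher and 4 lower (56.5% in all), with a median difference of 0.0689. The rule had kept 5 of the higher and 3 of the lower, and the list was written with earlier results known. The share is therefore a description and no separate support. He, the surface protein Hemese, read 10.56 and 10.39 in set 2 and 8.04, 7.78, 6.84 and 6.08 in the other GFP and Sxl RNAi arrays (mean difference 3.29). NimB5, a secreted Nimrod protein, read 8.03 and 8.08 against 4.77 to 5.19 (3.07), and NimC1, a phagocytosis receptor, 6.57 and 5.65 against 4.49 to 4.84 (1.45). Neither overlapped the other arrays, as held for 98 of the 100 higher kept genes and for 14.8% of all genes. The peroxidasin gene Pxn read 8.45 in GFP replicate 2 against 5.71 and 6.39, and 9.30 in Sxl RNAi replicate 1 against 6.92 and 8.51 (1.99), so that the array of set 3 under Sxl RNAi came above the GFP array of set 2. Glt, the gene of glutactin, read 9.74 and 9.55 against 6.84 to 8.40 (1.95). The GATA factor gene srp (log2 0.59 ± 0.12 SE, limma adjusted p = 0.0268), Hml, the haemolectin gene (0.68 ± 0.12, limma adjusted p = 0.0171), NimB4 (0.94 ± 0.09, limma adjusted p = 0.00177) and the growth factor receptor gene Pvr (0.48 ± 0.10, limma adjusted p = 0.0234) were higher by less than 2-fold. With probe sets of a gene averaged, the Pxn difference was 1.03. The Pxn and Pvr calls were lost also without Sxl RNAi replicate 2 (limma adjusted p for Pvr up to 0.336 over the 6 omissions).

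The 4 markers called lower were eater, crq, Col4a1 and vkg. eater, another phagocytosis receptor gene, read 6.74 and 7.30 in set 2 and 8.74 to 9.37 in the other 4 arrays (-1.98), and the scavenger receptor gene crq was lower (-0.99 ± 0.16 SE, limma adjusted p = 0.0120). Col4a1 and vkg, which encode the 2 chains of fly type IV collagen, read 5.70 and 5.78 in GFP replicate 2 against 9.82 to 9.94 in the other GFP arrays, and 6.75 and 7.02 in Sxl RNAi replicate 1 against 9.51 to 10.10 in the others. Their mean differences were -3.66 and -3.43. Both genes were lowest in the GFP array of set 2, and no other array came near. Markers not called included Ppn (0.04 ± 0.39 SE, limma adjusted p = 0.971), ush (0.25 ± 0.24, limma adjusted p = 0.648) and drpr (0.45, limma adjusted p = 0.0771).

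Basement membrane and matrix genes gave 2 higher and 5 lower calls of 17 (41.2%), with a median of -0.011. The rule had kept 2 higher and 4 lower members of this list, so the share is a description and no separate support. The list shares Col4a1, vkg, Ppn, Pxn, Glt and Tig with the haemocyte markers. Beside the collagens, SPARC, which binds collagen, read 12.23 and 12.55 in set 2 and 13.37 to 13.64 in the other 4 arrays (-1.16), the glypican gene dlp read 6.85 and 6.58 against 8.35 to 8.72 (-1.90), and the matrix protease gene Mmp2 was lower (-0.71 ± 0.11 SE, limma adjusted p = 0.00779). None of these laminin chains was called: LanA differed by 0.11 ± 0.09 SE (limma adjusted p = 0.561), LanB1 by 0.34 ± 0.10 (limma adjusted p = 0.0801) and LanB2 by 0.09 ± 0.09 (limma adjusted p = 0.643). The laminins stayed bright in all 8 arrays, while the collagen genes were low in set 2. Whether the difference between laminin and collagen genes is itself larger than the error was not tested.

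**Figure D4:**
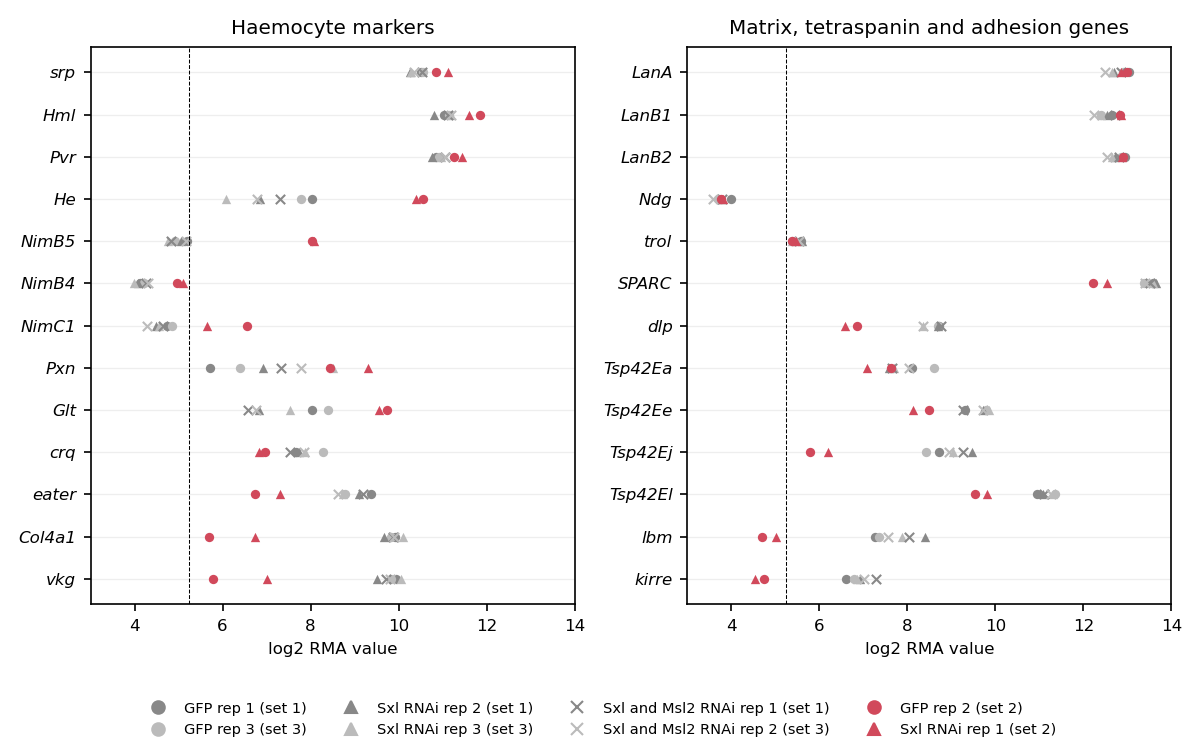
Log2 RMA value (x axis) in each of the 8 arrays for haemocyte markers (left) and for matrix, tetraspanin and adhesion genes (right); red marks set 2, dark and light grey sets 1 and 3, circles GFP, triangles Sxl RNAi and crosses Sxl and Msl2 RNAi, and the dashed line the median of all genes. He and NimB5 lay higher in set 2 and eater, Col4a1 and vkg lower, while LanA, LanB1 and LanB2 overlapped or nearly overlapped between sets.

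Crystal cell and lamellocyte markers gave 0 of 11, with mys, an integrin chain, at -0.33 ± 0.10 SE (limma adjusted p = 0.0954) and cher, the filamin gene, at -0.12 ± 0.09 (limma adjusted p = 0.512), and the defining genes lz and PPO1 were at 3.24 to 3.47 and 4.34 to 4.89 in the 6 arrays. Muscle markers gave 0 of 12, with TpnC41C at 0.15 ± 0.20 SE (limma adjusted p = 0.759) and Prm at -0.41 ± 0.21 (limma adjusted p = 0.325). Fat body and yolk markers gave 0 of 11, with Mtp at -0.16 ± 0.12 SE (limma adjusted p = 0.532) and Lpin at 0.23 ± 0.09 (limma adjusted p = 0.196). Only 4 of the 11 crystal cell and lamellocyte, 2 of the 12 muscle and 2 of the 11 fat body markers were expressed. Neuron and synapse markers gave 0 higher and 2 lower of 17 (11.8%, against 11.3% of all genes). cpx, the complexin gene, read 6.00 and 5.63 in set 2 against 6.95 to 7.63 (-1.46), and elav was lower (-0.81 ± 0.15 SE, limma adjusted p = 0.0163). Glia markers gave 2 lower of 7 (28.6%), Gs2, a glutamine synthetase gene, at 5.90 and 6.48 against 7.92 to 8.35 (-1.97), and loco (-0.58 ± 0.09 SE, limma adjusted p = 0.00718), while the defining glial gene repo read 3.60 to 3.84 in the 6 arrays. elav lay on the X chromosome and lost its call without either array of set 2.

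Tetraspanins, membrane proteins that organise receptors, gave 1 higher and 6 lower calls of 34 (20.6%), with a median of -0.084. Tsp42Ej read 5.78 and 6.20 in set 2 against 8.44 to 9.48 (-2.93), lbm 4.69 and 5.01 against 7.27 to 8.39 (-2.88), Tsp42El 9.54 and 9.80 against 10.94 to 11.35 (-1.50), and Tsp42Ee 8.49 and 8.12 against 9.31 to 9.87 (-1.37). All 4 are of the tetraspanin cluster on chromosome arm 2R, and in none did set 2 overlap the other arrays. All 4 were kept by the rule, which nearly fixes this. Set 2 lay below the other 4 arrays for 161 of the 162 lower kept genes and for 13.9% of all genes. The higher call was Tsp2A (0.77 ± 0.18 SE, limma adjusted p = 0.0419), and it was lost also without GFP replicate 3 or Sxl RNAi replicate 2 (limma adjusted p up to 0.478 over the 6 omissions).

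Integrins, cadherins and adhesion molecules gave 2 higher and 5 lower calls of 30 (23.3%, median -0.041). kirre, an immunoglobulin-domain protein of myoblast founder cells, read 4.74 and 4.55 in set 2 against 6.61 to 6.92 (-2.15), and by -1.08 with its probe sets averaged, the other being dim. Ten-m, a teneurin gene, read 7.63 and 7.40 against 8.72 to 9.03 (-1.37). rst, the kirre paralogue, was lower (-1.34 ± 0.23 SE, limma adjusted p = 0.0144), with 3.88 and 3.86 in set 2 and 4.64 to 5.92 elsewhere. scb, the integrin αPS3 gene, was higher, at 8.06 and 7.71 against 6.33 to 6.83 (1.39). Septate junction and epithelial genes gave 0 higher and 5 lower calls of 18 (27.8%), with a median of -0.226. Lac, an immunoglobulin-domain protein of septate junctions, read 9.39 and 9.20 against 10.29 to 10.87 (-1.40), and dlg1 (-1.11 ± 0.11 SE, limma adjusted p = 0.00155, and -0.48 with probe sets averaged), sinu (-0.76 ± 0.14, limma adjusted p = 0.0197) and crb (-0.69 ± 0.11, limma adjusted p = 0.0111) were also lower. Gli, the gliotactin gene, is not on the list and was among the lower kept genes (-1.27).

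Cytochrome P450 genes, which oxidise toxins, hormones and lipids, gave 12 higher and 5 lower calls of 83 (20.5%), with a median of 0.0517. Beside Cyp4p1, Cyp28a5 read 7.32 and 6.43 in set 2 against 4.38 to 5.40 (2.01), and Cyp6a2, which metabolises insecticides, 7.16 and 7.96 against 4.91 to 6.66 (1.71). Cyp6a8, kept but not called (2.15), read 9.62 in GFP replicate 2 against 5.78 and 7.78, and 10.02 in Sxl RNAi replicate 1 against 7.98 and 9.17, and so differed within sets 1 and 3 as well. Cyp12e1, a P450 of the mitochondrial type, was lower, at 7.45 and 7.89 against 9.06 to 9.43 (-1.59). Glutathione S-transferases gave 4 higher and 2 lower calls of 34 (17.6%, median 0.0305). GstD7 read 8.71 and 8.92 against 7.44 to 7.94 (1.21), GstD2 6.45 and 5.73 against 4.47 to 5.43 (1.12), and GstD10 6.40 and 6.41 against 5.12 to 5.37 (1.11). GstD1, the most studied member of the family, was lower (-0.94 ± 0.09 SE, limma adjusted p = 0.00122), at 12.65 and 12.53 against 13.34 to 13.70. The GstD genes lie in 1 cluster and went in both directions.

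UDP-glycosyltransferases gave 3 higher and 2 lower calls of 35 (14.3%, against 11.3% of all genes). Beside Ugt317A1, these included Ugt37D1 (0.74 ± 0.16 SE, limma adjusted p = 0.0279), Ugt49C1 (0.50 ± 0.08, limma adjusted p = 0.00918) and Ugt302C1 (-0.70 ± 0.08, limma adjusted p = 0.00242). Oxidative stress and metal response genes gave 2 higher and 4 lower calls of 17 (35.3%). The 2 higher ones were metallothioneins, MtnD and MtnA (0.65 ± 0.12 SE, limma adjusted p = 0.0173). The lower ones included Prx6c, a peroxiredoxin, at 8.51 and 8.91 in set 2 against 9.84, 11.39, 10.41 and 11.49 in the other 4 arrays (-2.07), and Gclc, which makes the glutathione precursor (-0.71 ± 0.12 SE, limma adjusted p = 0.0117). Heat shock and chaperone genes gave 3 higher and 0 lower calls of 12 with a median of 0.118: Hsp27 (0.91 ± 0.15 SE, limma adjusted p = 0.0120), Hsp26 (0.83 ± 0.12, limma adjusted p = 0.00652) and Hsf (0.34 ± 0.08, limma adjusted p = 0.0480). The calls of Ugt37D1 and Hsf were lost also without Sxl RNAi replicate 2, and that of Hsf without GFP replicate 3 or Sxl RNAi replicate 3 (limma adjusted p up to 0.337 and 0.396 over the 6 omissions). The Prx6c call was lost also without Sxl RNAi replicate 3.

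Notch pathway genes gave 0 higher and 2 lower calls of 20, a share below the 11.3% of all genes, and both were E(spl) genes, the repressors that Notch switches on. E(spl)m3-HLH read 3.64 in GFP replicate 2 against 4.47 and 4.95, and 3.85 in Sxl RNAi replicate 1 against 6.72 and 7.13 (mean difference -2.07), and its call was lost also without Sxl RNAi replicate 2. E(spl)mbeta-HLH read 5.45 against 6.78 and 6.20 in GFP, and 5.66 against 8.31 and 8.01 in Sxl RNAi (-1.77). In sets 1 and 3 both genes were higher under Sxl RNAi than under GFP, whereas in set 2 the treatments read nearly alike. The difference between the treatments was not called for either gene (interaction log2 -2.005 for E(spl)m3-HLH and -1.46 for E(spl)mbeta-HLH, limma adjusted p = 1.00 for both).

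EGFR, FGF and PVR signalling gave 1 higher and 3 lower calls of 17 (23.5%). Beside aos, kek1, another inhibitor of the EGF receptor (-0.80 ± 0.17 SE, limma adjusted p = 0.0284), and bnl, an FGF ligand (-0.79 ± 0.14, limma adjusted p = 0.0144), were lower. Wnt, Hedgehog, TGF-beta and Hippo genes gave 3 higher and 4 lower calls of 23 (30.4%). ci, the transcription factor of Hedgehog signalling on chromosome 4, read 5.25 in GFP replicate 2 against 8.39 and 6.87, and 4.76 in Sxl RNAi replicate 1 against 7.96 and 6.49 (-2.43), so that sets 1 and 3 also differed. nkd, an inhibitor of Wnt signalling (0.86 ± 0.14 SE, limma adjusted p = 0.0102), and the TGF-beta receptor gene babo (0.68 ± 0.13, limma adjusted p = 0.0183) were higher, and the BMP receptor gene tkv was lower (-0.71 ± 0.11, limma adjusted p = 0.00800). With probe sets averaged, bnl differed by -0.36 (limma adjusted p = 0.134) and tkv by -0.15 (limma adjusted p = 0.464), and neither was called. The kek1 call was lost also without Sxl RNAi replicate 2 (limma adjusted p up to 0.275 over the 6 omissions).

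Toll, Imd and antimicrobial genes gave 2 higher and 1 lower call of 22 (13.6%, against 11.3% of all genes). pirk, a feedback inhibitor of the Imd pathway, read 5.95 and 6.86 in set 2 against 4.85 to 5.49 (1.28), the kinase gene pll was higher (0.45 ± 0.08 SE, limma adjusted p = 0.0158) and PGRP-LB, an amidase that degrades peptidoglycan, lower (-0.38 ± 0.08, limma adjusted p = 0.0226). JAK/STAT genes gave 2 higher and 1 lower of 9 (33.3%): the phosphatase gene Ptp61F (0.72 ± 0.11 SE, limma adjusted p = 0.00962) and Socs44A (0.44 ± 0.09, limma adjusted p = 0.0264) were higher, and et, a receptor that damps the pathway, was lower (-1.13 ± 0.18, limma adjusted p = 0.0108). JNK pathway genes gave 2 higher and 1 lower of 12 (25.0%), with msn (0.55 ± 0.11 SE, limma adjusted p = 0.0255) and the phosphatase gene puc (0.48 ± 0.09, limma adjusted p = 0.0194) higher and the TNF receptor gene wgn lower (-0.72 ± 0.10, limma adjusted p = 0.00575). The calls of pll, PGRP-LB, Socs44A and puc were lost also without Sxl RNAi replicate 2, and those of the last 3 without Sxl RNAi replicate 3 (limma adjusted p up to 0.255, 0.221, 0.295 and 0.284 over the 6 omissions). Ecdysone response genes gave 1 higher and 4 lower of 24 (20.8%). The nuclear receptor gene Eip78C read 4.89 and 5.02 against 5.99 to 6.47 (-1.27), ftz-f1 (-0.80 ± 0.10 SE, limma adjusted p = 0.00360) and ImpL2 (-0.60 ± 0.09, limma adjusted p = 0.00867) were lower, and MsrA was higher (0.77 ± 0.14, limma adjusted p = 0.0166).

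Germ line and testis markers gave 2 higher and 3 lower calls of 19 (26.3%). Beside bam, fzo, the testis mitofusin gene, was higher (0.71 ± 0.11 SE, limma adjusted p = 0.00793), at 4.85 and 4.96 in set 2 against 4.03 to 4.37. AGO3 and aub, which load piRNAs, read 6.499 and 6.003 against 6.999 to 7.95 (-1.27), and 8.20 and 8.32 against 9.32 to 9.68 (-1.24). Small RNA machinery, which shares AGO3, aub and piwi with that list, gave 1 higher and 3 lower calls of 12, armi being higher (0.52 ± 0.08 SE, limma adjusted p = 0.00999) and piwi lower (-0.49 ± 0.11, limma adjusted p = 0.0355). krimp, which is on neither list and acts with AGO3 and Aub in germ cells, was among the higher kept genes, at 10.44 and 10.42 against 7.89 to 8.92 (2.02). The germ line genes vas and osk read 3.75 to 4.01 and 3.86 to 4.08 in the 6 arrays. The piwi call was lost also without Sxl RNAi replicate 2 or 3 (limma adjusted p up to 0.315 over the 6 omissions).

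Sugar metabolism gave 2 higher and 2 lower calls of 19 (21.1%). Glut1, a glucose transporter gene, read 6.36 and 6.48 in set 2 and 4.73 to 4.80 in the other 4 arrays (1.66). With its probe sets averaged the difference was 0.62, since 2 further dim probe sets differed by 0.03 and 0.06 in GFP and by 0.21 and 0.08 in Sxl RNAi. fbp, the gluconeogenic fructose-1,6-bisphosphatase gene, read 10.08 and 9.9997 against 8.51 to 9.04 (1.27). Tps1, which makes trehalose (-0.99 ± 0.20 SE, limma adjusted p = 0.0221), and Treh, which splits it (-0.40 ± 0.08, limma adjusted p = 0.0202), were lower. Amino acid and one-carbon metabolism gave 3 higher and 2 lower calls of 21 (23.8%). Cbs, the cystathionine beta-synthase gene, read 11.53 and 11.84 against 9.62 to 10.56 (1.56), Ahcy was higher (0.39 ± 0.09 SE, limma adjusted p = 0.0350) and Sam-S, which makes S-adenosylmethionine, lower (-0.39 ± 0.09, limma adjusted p = 0.0403). The calls of Treh, Ahcy and Sam-S were lost also without Sxl RNAi replicate 2 or 3 (limma adjusted p up to 0.276, 0.414 and 0.400 over the 6 omissions), those of Ahcy and Sam-S also without GFP replicate 3, and that of Sam-S without GFP replicate 1. Lipid metabolism gave 1 higher, Mtpbeta (0.38 ± 0.08 SE, limma adjusted p = 0.0240), and 1 lower of 22 (9.09%, against 11.3% of all genes). The latter was Lsd-1, the lipid droplet perilipin gene, at 5.47 and 5.71 against 6.99 to 8.15 (-2.01). The Mtpbeta call was lost also without Sxl RNAi replicate 2 or 3 (limma adjusted p up to 0.278 over the 6 omissions).

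Lysosome and autophagy genes gave 3 higher and 4 lower calls of 23 (30.4%). The hexosaminidase gene Hexo2 read 11.03 and 11.19 against 12.14 to 12.42 (-1.15), Atg5 (-0.88 ± 0.11 SE, limma adjusted p = 0.00396) and the cathepsin gene CtsF (-0.55 ± 0.10, limma adjusted p = 0.0173) were lower, and Vha44, a proton pump subunit gene, was higher (0.83 ± 0.15, limma adjusted p = 0.0149). Insulin and TOR signalling gave 3 higher and 1 lower call of 14, with a median of 0.174: Sesn, an inhibitor of TOR (1.00 ± 0.12 SE, limma adjusted p = 0.00373), foxo (0.79 ± 0.12, limma adjusted p = 0.00958) and mTor (0.43 ± 0.10, limma adjusted p = 0.0335) were higher. Apoptosis and DNA damage genes gave 2 higher and 3 lower of 17, with Debcl, a Bcl-2 family gene, at 7.76 and 7.90 against 8.997 to 9.30 (-1.31), p53 lower (-1.0001 ± 0.10 SE, limma adjusted p = 0.00192), Irbp18 lower (-0.54 ± 0.12, limma adjusted p = 0.0372) and the caspase gene Strica higher (0.56 ± 0.11, limma adjusted p = 0.0209). In the ATF4 and unfolded protein list of 11, Atf3 read 4.26 and 4.68 against 6.20 to 6.46 (-1.83) and Atf6 was higher (0.62 ± 0.13 SE, limma adjusted p = 0.0276). The calls of CtsF and mTor were lost also without Sxl RNAi replicate 2, and those of mTor and Irbp18 without GFP replicate 3 or Sxl RNAi replicate 3 (limma adjusted p for CtsF, mTor and Irbp18 up to 0.272, 0.390 and 0.371 over the 6 omissions).

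Mitochondrial ribosomal protein genes gave 7 higher and 2 lower calls of 69 (median 0.0454), all under 2-fold, from mRpL10 (-0.70 ± 0.10 SE, limma adjusted p = 0.00696) to mRpL18 (0.57 ± 0.08, limma adjusted p = 0.00510). mRpL23 (0.54 ± 0.10, limma adjusted p = 0.0151) and mRpL20 (0.53 ± 0.10, limma adjusted p = 0.0185) were higher, the latter's call lost without Sxl RNAi replicate 2. Oxidative phosphorylation genes gave 3 higher and 6 lower calls of 75 (median 0.009), and those past 2-fold in both treatments were paralogues of subunits: COX4L read 5.82 and 5.96 in set 2 against 7.55 to 7.99 (-1.94), COX7AL 5.21 and 4.84 against 5.74 to 6.83 (-1.23), and ATPsynepsilonL 9.06 and 8.44 against 6.87 to 7.75 (1.54). ATPsynC, the subunit of the rotor ring, was higher (1.03 ± 0.23 SE, limma adjusted p = 0.0328), with 12.51 and 11.42 in set 2 and 12.15, 11.82, 10.02 and 9.74 in the others. Set 2 overlapped the other arrays for ATPsynC across treatments, though not within a treatment, and its call was lost also without GFP replicate 3 or Sxl RNAi replicate 2 or 3 (limma adjusted p up to 0.341 over the 6 omissions).

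Cytosolic ribosomal proteins gave 1 call of 41, RpL24-like (0.53 ± 0.09 SE, limma adjusted p = 0.0124), proteasome subunits 1 of 40, Rpn1 (-0.37 ± 0.08, limma adjusted p = 0.0321), and the measured histone gene His2Av was not called (0.09 ± 0.10, limma adjusted p = 0.676). Cell cycle and DNA replication genes, all expressed, gave 0 higher and 3 lower calls of 24 (12.5%, against 11.3% of all genes). The bins of genes above the 5.24 level gave 648 calls of 2995 and 537 of 2996, larger shares than that of this list. The calls were CycE (-0.55 ± 0.11 SE, limma adjusted p = 0.0254), Cdc45 (-0.49 ± 0.11, limma adjusted p = 0.0339) and Cdk4 (-0.40 ± 0.10, limma adjusted p = 0.0477). The calls of Rpn1, CycE, Cdc45 and Cdk4 were lost also without Sxl RNAi replicate 2, those of Rpn1, Cdc45 and Cdk4 without Sxl RNAi replicate 3, that of Rpn1 without GFP replicate 1, and those of Cdc45 and Cdk4 without GFP replicate 3 (limma adjusted p up to 0.331, 0.255, 0.408 and 0.441 over the 6 omissions). Actin and tubulin genes gave 3 higher and 1 lower of 13 (30.8%), with the tubulin gene betaTub97EF at 10.58 and 10.62 in set 2 against 8.82 to 9.38 (1.38), betaTub60D higher (0.81 ± 0.09 SE, limma adjusted p = 0.00249), alphaTub85E higher (0.44 ± 0.09, limma adjusted p = 0.0237), and Moe lower (-0.39 ± 0.08, limma adjusted p = 0.0213). The calls of alphaTub85E and Moe were lost also without Sxl RNAi replicate 2, and that of Moe without Sxl RNAi replicate 3 (limma adjusted p up to 0.275 and 0.256 over the 6 omissions).

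The lists of sex determination and the MSL complex, the targets of the series, gave 1 higher and 1 lower call of 18 (11.1%, against 11.3% of all genes), msl-1 (0.57 ± 0.11 SE, limma adjusted p = 0.0218) and tra2 (-0.48 ± 0.08, limma adjusted p = 0.0157). The msl-1 call was lost also without Sxl RNAi replicate 2 or 3 (limma adjusted p up to 0.307 over the 6 omissions). Circadian clock genes gave 2 higher, Pdp1 (0.94 ± 0.17 SE, limma adjusted p = 0.0179) and cwo (0.63 ± 0.13, limma adjusted p = 0.0257), and 1 lower, cyc (-0.72 ± 0.14, limma adjusted p = 0.0192), of 10. The calls of Pdp1 and cwo were lost also without Sxl RNAi replicate 2, and that of cwo without Sxl RNAi replicate 3 (limma adjusted p up to 0.282 and 0.307 over the 6 omissions). Lists of tissue-restricted families were called rarely: cuticle proteins 1 of 108, TwdlG (-0.50 ± 0.08 SE, limma adjusted p = 0.0125), chemosensory genes 5 of 225, ion channels 1 of 33, Trpm (0.84 ± 0.14, limma adjusted p = 0.0136, and 0.55 with probe sets averaged), and Hox and positional genes 1 of 29, bcd (-0.37 ± 0.09, limma adjusted p = 0.0443), whose call was lost also without GFP replicate 3 or Sxl RNAi replicate 2 or 3 and with probe sets averaged (-0.21, limma adjusted p = 0.285). Most members of these lists were dim, and dim genes were seldom called. Those expressed were 10 of the 108 cuticle, 8 of the 225 chemosensory, 5 of the 33 ion channel and 2 of the 29 Hox and positional genes. mirr, a homeobox gene of the Iroquois complex, was kept, at 6.92 and 7.05 against 4.75 to 5.20 (1.95). The chemosensory gene with the largest difference was the odorant-binding protein gene Obp44a, at 6.23 and 6.73 against 8.55 to 9.50 (-2.51), and Gr94a was lower (-1.13 ± 0.17, limma adjusted p = 0.00752). Serpins and serine proteases gave 2 higher and 2 lower of 47 (8.51%, against 11.3% of all genes). Spn42Dd read 6.76 and 6.56 against 8.32 to 9.31 (-1.99). Spn27A, which holds back melanisation and Toll activation, read 6.68 and 7.19 against 7.92 to 8.50 (-1.21). Chitinase-like genes gave 1 higher and 2 lower of 16, with Cht6 at 5.03 and 5.17 against 6.28 to 6.79 (-1.41, and -0.74 with probe sets averaged), Cht2 lower (-0.70 ± 0.11, limma adjusted p = 0.00904), and Idgf1, a secreted growth factor, at 7.60 against 5.98 and 6.90 in GFP and 9.12 against 7.72 and 8.28 in Sxl RNAi (1.14), whose call was lost also without Sxl RNAi replicate 2.

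**Figure D5:**
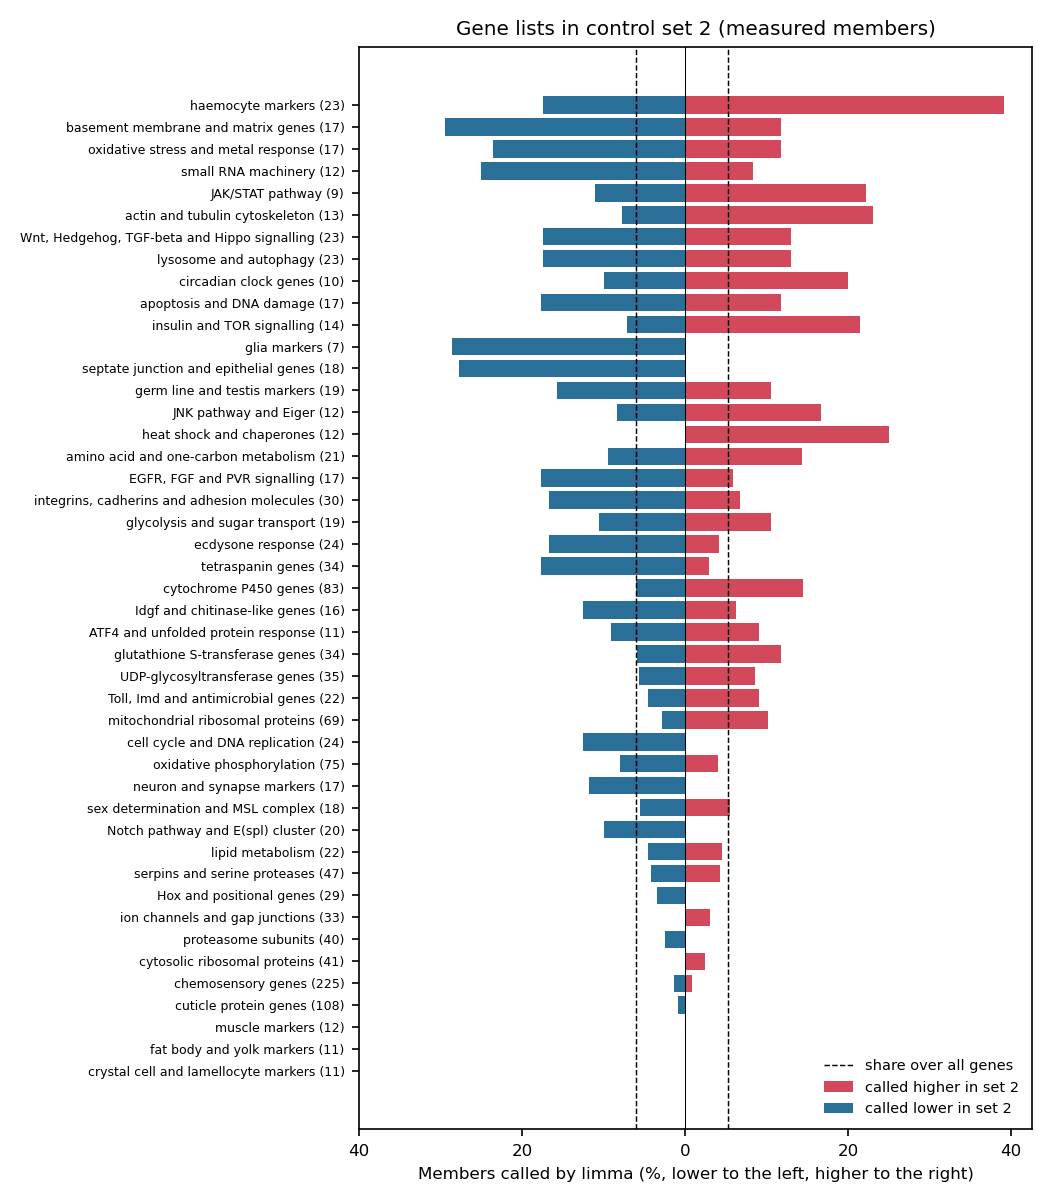
Share of the measured members of each gene list (number in brackets) that limma called higher (red, to the right) or lower (blue, to the left) in set 2, in percent; dashed lines mark the shares over all genes, 5.22% higher and 6.06% lower. Dim genes were seldom called, so the dashed lines lie low for lists of expressed genes. Haemocyte markers had the largest share called, 9 of 23 higher and 4 lower, of which the rule had kept 5 and 3. The lists were written with earlier results of these data known. The muscle, fat body and crystal cell lists, most of whose members were dim, had none.

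Lower calls in set 2 were frequent on the X chromosome. Of 1873 X-linked genes, 60 were called higher and 243 lower by limma, where 5.22% and 6.06% of all genes were. The counts were 114 and 118 of 2205 on arm 2L and 170 and 100 of 2427 on arm 2R. They were 129 and 114 of 2344 on arm 3L and 151 and 145 of 2974 on arm 3R. By the 2-fold rule the X held 11 higher (0.587%) and 37 lower genes (1.98%), against 0.835% and 1.35% of all genes. Chromosome 4 held 0 higher and 2 lower of 65 genes (3.08%). The median difference of expressed X genes was -0.126, and that of the other large arms 0.035 to 0.0548. For each array, expressed genes were centred on their own means over the 6 arrays, and the autosomal median was subtracted from the X median. These values compare arrays and do not give the level of X genes against autosomal genes. They were -0.276 in GFP replicate 2, against -0.077 and -0.0835 in the other GFP arrays. In Sxl RNAi replicate 1 the value was 0.0505, against 0.216 and 0.177 in the other Sxl RNAi arrays. Set 2 was thus the lowest array of both treatments, by 0.166 in the fit. An exact two-sided permutation test of set 2 within treatments gave p = 0.111, the smallest that its 9 arrangements allow, so that the design cannot pass the threshold.

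Neighbouring genes shared some of the differences. Among the kept genes, 12 of the 100 higher and 10 of the 162 lower ones (6.17%) lay next to a measured gene kept in the same direction, where 1.66% and 2.67% of all 11893 located genes had such a neighbour. The longest run was NimB5, He, NimC1 and Cyp28a5 on arm 2L, all higher, by 3.07, 3.29, 1.45 and 2.01, of which the first 3 are among the Nimrod gene cluster. vkg and Col4a1, which share a promoter region head to head, were both lower, as were the neighbouring tetraspanin genes Tsp42El and lbm on 2R. The remaining pairs were CG16957 and CG10859, CG8008 and CG8046, and Prx6c and CG11825, all lower, and CG5958 and CG5973, CG3597 and CG3609, Epac and Cyp6a2, and CG15861 and CG3770, all higher. Gene order is that of the RefSeq annotation, and adjacent genes are not independent.

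Most kept genes were of middle level. With genes split into 4 bins by mean level, dimmest first, the higher genes numbered 0, 18, 67 and 15 and the lower ones 0, 4, 116 and 42. Where a kept gene had further probe sets, 34 of 43 differed in the same direction and 10 passed the rule, and of the 13 whose mean was above the 5.24 level all had the same direction and 7 passed. AnxB9 and Arc1 were among the genes with a further probe set that passed. At the edge of the rule, Erk7 (1.00 in GFP, 1.23 in Sxl RNAi), Cyp6a9 (-1.01, -1.41) and CG10814 (1.54, 1.01) were just inside, and baz (0.999, 1.07), Lmpt (-0.996, -1.38) and Ance-3 (-1.08, -0.99) just outside.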

How the data were processed

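Deposited values were log2 probe set summaries of 8 arrays, which the authors made with RMA (background correction, normalization across arrays, probe summary); its version is not given in the sources used here. Because RMA draws array distributions together, a change common to most genes would not show, and the arrays carry no counts, so that their number limits the precision. Of 18952 probe sets, 183 were controls, 13647 had 1 gene symbol in the platform annotation, 402 several and 4720 none. The probe set with the highest mean stood for a gene (11982 genes, 1094 with more than 1), and 11893 symbols matched the RefSeq table of Release 6 plus ISO1 MT, used for arms and gene order.

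Differences of set 2 were computed within treatment and fitted with limma 3.58.1 (R 4.3.3; lmFit and eBayes, 3 residual degrees of freedom) on treatment and set 2 over 6 arrays, with Benjamini-Hochberg adjustment over all genes at 0.05. The fit was tested on simulated data. Members and lists were chosen with earlier results of these data known, set 2 among them because its arrays stood apart. Named genes were the 15 highest and 15 lowest kept genes, up to 4 called members of each list by difference (or 2 by level where none passed), Sxl and msl-2, and genes at the edge of the rule. Others are named as chosen afterwards or to complete a list. The labels do not say that arrays came from separate cultures, and set 2 is 1 set, so p values measure the spread between these arrays, which may be technical. Sets come from the label naming each knockdown's GFP control. Deviations from the treatment means, over expressed genes, correlated at 0.825, 0.895 and 0.858 between the GFP and Sxl RNAi arrays of sets 1, 2 and 3. Alternatives were the error model, samples, variance prior, dim genes, probe sets, scaling, threshold and omission of each array. Promoter sequence was not analysed here.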

Additional observations from a re-analysis of the deposited data

Results flagged for a closer look

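Control probe sets, which no comparison of genes used, separated the arrays of set 2 from all others. Set 2 lay below the lowest of the other 6 arrays in the poly-A spikes, and the values here are the mean of the 2 set 2 arrays minus the mean of the other GFP and Sxl RNAi arrays. Over 12 probe sets the mean difference was -2.06 on the log2 scale. It was -5.24 for the 3′ probe set of dap, -3.99 for its middle and -2.89 for its 5′ probe set. It was -2.70, -1.66 and -1.75 for the 3′, middle and 5′ probe sets of thr, and -1.71 and -1.54 for the middle and 5′ probe sets of phe. The sources used here do not say whether the spikes were added to the RNA of set 2, and the part of the spike difference in the gene differences was not tested.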

How the results depend on the processing

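The limma count of 1352 was 2550 with each control set as a block and 2493 with a replicate block by the titles' numbers, and 1352 and 1347 of the reported calls were among them. Without 1 array it ranged from 233 to 1473. Members of the lists called numbered 182 as reported, 307 with the control set block and 307 with the replicate block. The titles' numbers do not pair the arrays: deviations of same-numbered arrays correlated at -0.629, -0.739 and 0.858, and the last pair is also a control set. The rule kept 649 genes at 1.5-fold, 91 at 3-fold and 49 at 4-fold, and 245 to 263 with an array of sets 1 or 3 left out. Without a set 2 array it has 1 treatment only and was not run. The X minus autosome difference was -0.0608 over all genes and -0.192 to -0.140 without 1 array. No value changed direction. The interaction called 0 genes in all 3 settings run. No other call was changed in number by over 1.5 times. A set with 1 array per treatment, few residual degrees of freedom and no detection call limit what dim genes can show.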
